A study of Homo sapiens with 8 samples.

Results

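The expression of untreated Raji-4RH cells was compared with that of untreated Raji cells, in 4 of the 8 RNA-seq libraries of the study. Raji is an established Burkitt lymphoma cell line that rituximab kills, and Raji-4RH is a resistant line raised from it by repeated exposure to rituximab, which also resists several chemotherapy drugs. Both lines received DMSO, the solvent control, for 24 h, after which the cells were collected by flow sorting, and each line had 2 replicate libraries. The other 4 libraries are the same lines with 3 μM chidamide, a histone deacetylase inhibitor, for 24 h. They show whether the line difference was also present in other libraries. They also entered the same fit, and so count in the choice of genes tested and in the spread behind the p-values. Each line is a single line, and nothing in the labels says that the replicates were grown apart, so the p-values measure the spread between these libraries, which may be technical. What rituximab selected and what else changed while the lines were grown separately cannot be told apart.

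Rituximab is an antibody against CD20, the product of MS4A1, a membrane protein of B cells. Antibody-coated B cells are killed by complement, by effector cells that bind the antibody through Fc receptors, and by apoptosis set off from the clustered CD20. The B cell receptor passes its signal from CD79A and CD79B through the kinase SYK and protein kinase C beta to NF-kB, while mitochondrial apoptosis needs the pore proteins BAX or BAK1.

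The deposited values are FPKM, the reads of a gene scaled to its length and to the total reads of the library. In the DMSO groups the library totals were 19747915 and 20144336 reads for Raji and 18755227 and 21193441 reads for Raji-4RH. Many of the table's gene names stand up to 14 rows above their values, so each gene was given the values found for it. This placed 18143 gene names, 11909 of them below their own row, and between 92.4% and 93.2% of the reads of these libraries. Of the 10710 genes tested, 6379 have values from below their own row. Replicates correlated at 0.998 in both lines across the 10710 genes tested, on the log2(FPKM + 1) scale, and the lines at 0.882 to 0.885, whereas Raji with and without chidamide correlated at 0.960 to 0.961. Genes are not independent replicates, and these correlations are given as a description.

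The lines differed in most of the genes they express. With limma on log2(FPKM + 1), 7882 genes passed an adjusted p of 0.05, which is 73.6% of those tested, and 4412 of them (41.2%) were higher and 3470 (32.4%) lower in Raji-4RH. The median absolute log2 fold change over all genes was 0.39, so many of these differences are small. For that reason a change of at least 1 on the log2 scale, a doubling or halving of FPKM + 1, was counted beside the test, and 914 genes (8.53%) were higher and 789 (7.37%) lower by that much. The values of the lines did not overlap for 88.5% of the genes, the share against which the separate values given for single genes should be read. Each gene list was described by the same counts, which are to be read against 41.2% higher and 32.4% lower of all genes. Counts of members changed by at least 1 are to be read against 8.53% higher and 7.37% lower. The list members named as examples beyond the rule given with the methods were chosen after their values were seen.

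**Figure D1:**
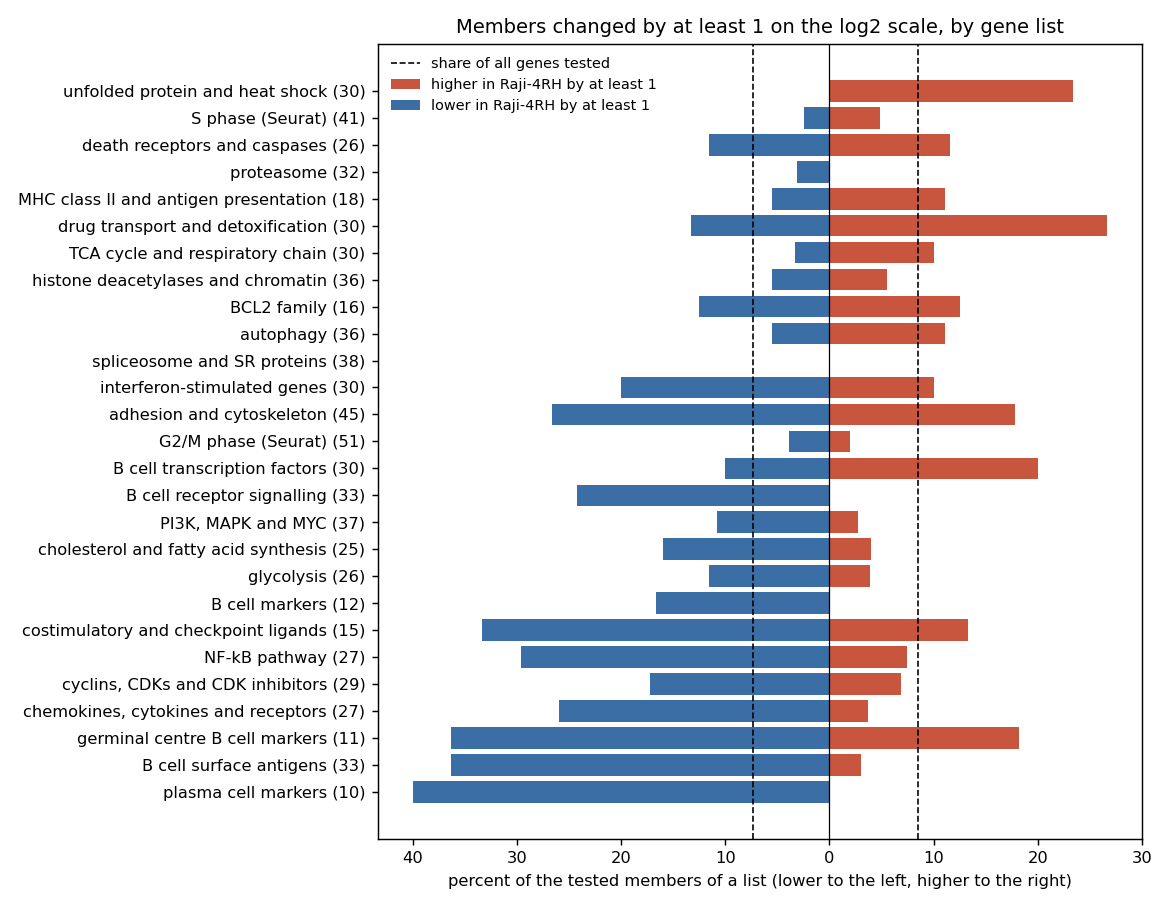
Percent of the tested members of each gene list (number tested in brackets) that passed the test and were higher (right) or lower (left) in Raji-4RH DMSO than in Raji DMSO by at least 1 on the log2 scale, for lists with at least 10 tested members, ordered by median. The dashed lines are the shares of all genes tested, 8.53% higher and 7.37% lower. Surface antigens, NF-kB and B cell receptor signalling genes reach far to the left, and stress and detoxification genes to the right.

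Both lines expressed B cell genes. All 12 B cell markers were at 1 FPKM or more in each of the 4 libraries, with a summed level of 1837 and 1779 FPKM in Raji and 1457 and 1520 FPKM in Raji-4RH, and 8 were lower and 2 higher in the resistant line. Their log2 fold changes had a median of -0.28, beside 0.06 for all genes. Myeloid markers summed to between 1.35 and 1.57 FPKM in each library, and only 5 of 13 could be tested, of which LYZ, encoding lysozyme, was lower, from 0.832 and 0.844 FPKM to 0.151 and 0.134 FPKM. The 14 epithelial and fibroblast markers summed to 6.01 and 5.41 FPKM in Raji and 0.246 and 0.239 FPKM in Raji-4RH. Most of that sum was VIM, which encodes the intermediate filament vimentin, with 5.12 and 4.65 FPKM in Raji and 0.145 and 0.165 FPKM in Raji-4RH (log2 fold change -2.35). COL1A1, at 0.191 FPKM or less in every DMSO library, was the other member tested and was also lower. It did not pass the test without any 1 of the 4 libraries or with a replicate block (limma adjusted p = 0.0589).

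Among the 16 T and NK cell markers, the sum was 1.81 and 1.99 FPKM in Raji and 24.5 and 27.9 FPKM in Raji-4RH. Only 6 reached the level needed for testing, and 4 of these were higher. In DMSO, 1 marker was at 1 FPKM or more in each Raji library and 4 in each Raji-4RH library. A marker silent in Raji could be tested only if it was high elsewhere, so this count partly follows from the rule for testing. PRF1, which encodes the pore protein perforin, rose from 0.0799 and 0.0588 FPKM in Raji to 10.6 and 11.4 FPKM in Raji-4RH. CD7 had 0.0370 and 0.0363 FPKM in Raji and 6.90 and 8.42 FPKM in Raji-4RH, and CD4, a coreceptor of helper T cells, had 0.0221 and 0.0108 FPKM in Raji and 4.03 and 4.65 FPKM in Raji-4RH. The defining T cell genes CD3D and CD2 and the granzyme gene GZMB had 0 reads in all 4 libraries, and CD3E was at 0.619 and 0.830 FPKM in Raji-4RH. In these bulk libraries, a few cells at a high level and many cells at a low level cannot be told apart.

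CD20 expression was lower in the resistant line. MS4A1 (ENSG00000156738, chr11:60455752-60470760 of GRCh38, plus strand) stood at 53.8 and 58.7 FPKM in Raji and at 12.5 and 12.9 FPKM in Raji-4RH, with reads per library total 4.43-fold lower. The log2 fold change was -2.06 ± 0.08 (SE, n = 2 per line, limma adjusted p = 8.5e-08). MS4A1 kept an appreciable level in Raji-4RH, about that of CD40, which encodes a receptor for T cell help, with 13.2 and 12.9 FPKM there and 16.7 and 17.9 FPKM in Raji.

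The lower CD20 expression stood within a group of surface antigens that were mostly lower. Of 33 tested members, 23 were lower and 6 higher in Raji-4RH, and 12 were lower by at least 1 (36.4%, against 7.37% of all genes) while 1 was higher by that much. CD38, an ectoenzyme of germinal center and plasma cells, was at 32.2 and 33.8 FPKM in Raji and 4.09 and 4.06 FPKM in Raji-4RH (log2 fold change -2.74 ± 0.05). FCER2, the low-affinity IgE receptor CD23, went from 5.39 and 5.33 FPKM to 0.0653 and 0.0193 FPKM, a -2.61 change. CD27, a TNF receptor family member whose ligand is CD70, stood at 124 and 115 FPKM in Raji and 22.1 and 23 FPKM in Raji-4RH. These antigens were low in both Raji-4RH libraries, well outside the range of the Raji libraries. A lack of overlap between the lines was found for 88.5% of all genes tested.

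Other antigens against which antibodies have been made were also lower, by less. The tetraspanin gene CD37 had 73.2 and 67.3 FPKM in Raji and 26.5 and 28.3 FPKM in Raji-4RH (-1.33 ± 0.10). The inhibitory lectin CD22 changed by -0.65, the target of alemtuzumab CD52 by -0.45, CD40 by -0.38 and CD70 by -0.35, all past the test. In contrast, CD72, an inhibitory coreceptor, was higher, with 7.30 and 7.15 FPKM in Raji and 12.5 and 12.3 FPKM in Raji-4RH, and the one antigen higher by at least 1 was FCRL1, an Fc receptor-like protein, with 0.257 and 0.252 FPKM against 3.69 and 2.97 FPKM. ROR1, an orphan receptor kinase, had 1.58 and 1.53 FPKM in Raji and no reads in Raji-4RH.

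**Figure D2:**
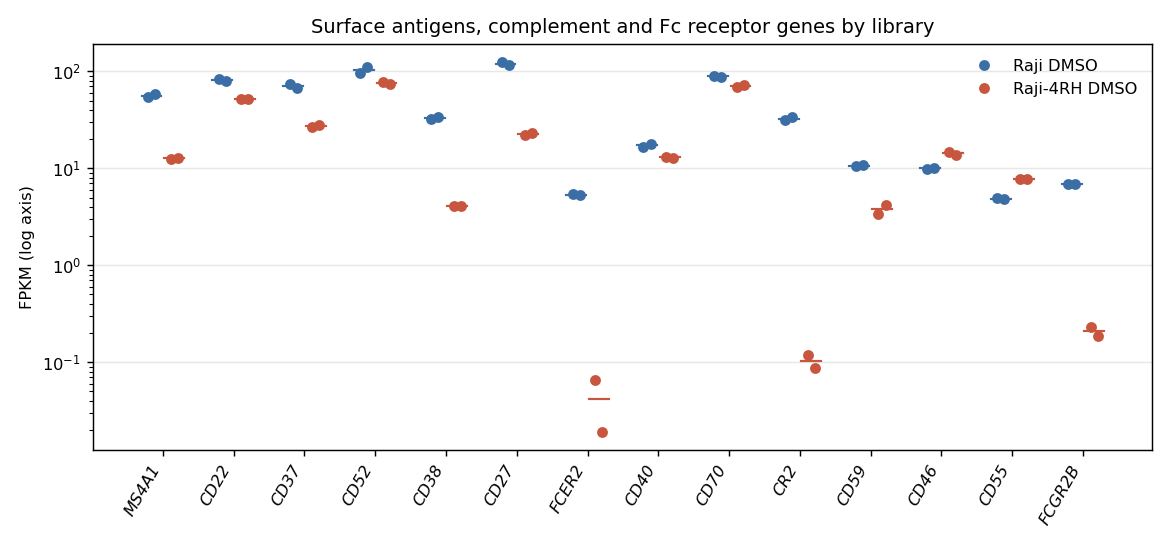
FPKM (log axis) of 14 surface antigen, complement and Fc receptor genes in the 2 Raji DMSO libraries (blue) and the 2 Raji-4RH DMSO libraries (red), with short lines at the group means. MS4A1 lies near 56 FPKM in Raji and near 13 FPKM in Raji-4RH, CR2, FCER2 and FCGR2B fall below 1 FPKM in Raji-4RH, and CD46 and CD55 are higher there.

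Complement genes went both ways. CD46 and CD55, which encode membrane inhibitors of the early complement steps, were higher in Raji-4RH, CD46 with 9.96 and 10.1 FPKM in Raji and 14.9 and 13.8 FPKM in Raji-4RH (0.47 ± 0.05) and CD55 with 4.88 and 4.84 FPKM against 7.85 and 7.79 FPKM (0.59 ± 0.05). CD59, which blocks the membrane attack complex, was lower, at 10.5 and 10.8 FPKM in Raji and 3.42 and 4.18 FPKM in Raji-4RH (-1.28 ± 0.08, limma adjusted p = 2.1e-06). The complement receptor CR2, also known as CD21 (chr1:207454230-207489895), was close to absent from Raji-4RH, with 31.4 and 33.4 FPKM in Raji and 0.120 and 0.0869 FPKM in Raji-4RH. In reads this was 6318 over both Raji libraries and 20 over both Raji-4RH libraries, a 316-fold difference per library total. All 7 tested members of this list passed the test, 4 higher and 3 lower, where 73.6% of all genes passed. C5AR1, a receptor for the complement peptide C5a, was higher from a low level, 0.189 and 0.185 FPKM against 1.63 and 1.33 FPKM.

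FCGR2B, the inhibitory Fc receptor of B cells, which can draw rituximab into the cell together with CD20, was at 6.94 and 6.93 FPKM in Raji and 0.232 and 0.184 FPKM in Raji-4RH (-2.72 ± 0.07). Of the 5 Fc receptor genes tested 3 were lower and 1, the IgM receptor gene FCMR, higher, from 0.690 and 0.507 FPKM to 1.39 and 1.13 FPKM. The FCMR difference was 0.50, and 0.23 with quantile normalization, where it did not pass the test. FCGRT, the neonatal Fc receptor, was lower at 0.601 and 0.814 FPKM in Raji-4RH against 1.38 and 1.30 FPKM in Raji.

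In the signalling chain of the B cell receptor, the steps differed unequally. The receptor's own chains were both lower, with CD79A at 575 and 537 FPKM in Raji and 357 and 385 FPKM in Raji-4RH (-0.58) and CD79B at -0.25. The kinase SYK had 52.1 and 53.6 FPKM against 24.2 and 24.1 FPKM (-1.10), whereas BTK changed by -0.16, not past the test without 3 of the 4 libraries in turn, and the adaptor BLNK by 0.03, which did not pass the test. A kinase of the next step toward NF-kB was much lower. PRKCB, protein kinase C beta (chr16:23835946-24220611), had 20.9 and 20.7 FPKM in Raji and 0.0212 and 0.0517 FPKM in Raji-4RH, or 8321 reads against 15.

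BCL10 and MALT1, which pass the signal on to NF-kB, were slightly higher, by 0.39 and 0.35. PIK3CD, the phosphoinositide 3-kinase delta catalytic subunit, had 61.3 and 57.2 FPKM in Raji and 15.6 and 17.7 FPKM in Raji-4RH (-1.77), and RASGRP3, an activator of Ras, changed by -1.90. Over the 33 tested members of the pathway 16 were lower and 11 higher, and 8 were lower by at least 1 (24.2%, against 7.37% of all genes) while 0 were higher by that much. This list also holds CR2, CD22 and FCGR2B, which are counted above among the antigens and receptors.

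**Figure D3:**
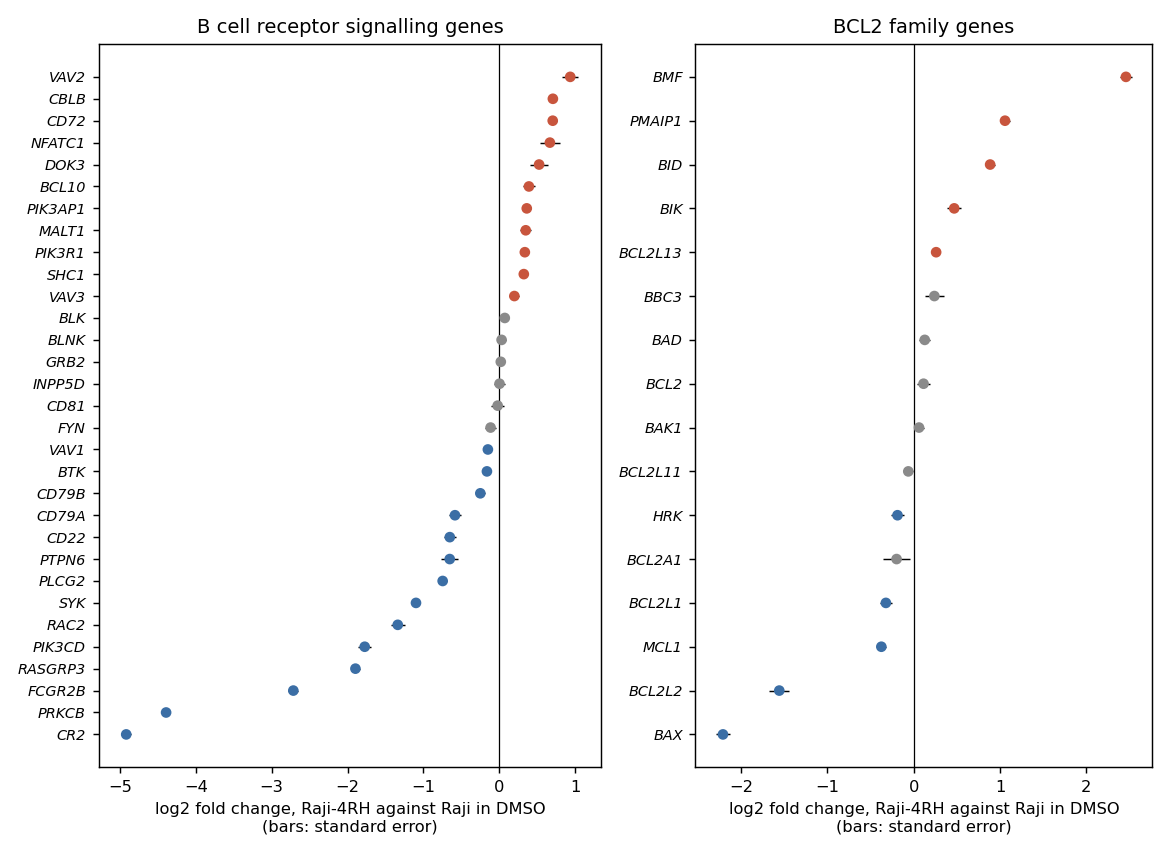
Log2 fold change with its standard error between Raji-4RH DMSO and Raji DMSO for 31 of the tested B cell receptor signalling genes (left) and the 16 tested BCL2 family genes (right), with genes higher in Raji-4RH in red, lower in blue and those that did not pass the test in grey. CR2, PRKCB and FCGR2B lie farthest to the left in the first panel, and BAX at -2.21 and BMF at 2.46 are the ends of the second.

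Genes of the NF-kB pathway and its targets were mostly lower, 18 of 27 tested (66.7%, against 32.4% of all genes) while 6 were higher. Of the 27, 8 were lower by at least 1 (29.6%, against 7.37% of all genes), and the median was -0.37. EBI3, a subunit of interleukins 27 and 35, had 9.94 and 8.31 FPKM in Raji and 0.0831 and 0.0735 FPKM in Raji-4RH, and the apoptosis inhibitor BIRC3 had 85.0 and 91.7 FPKM against 21.6 and 22 FPKM. The chemokine receptor CCR7 changed by -1.67 and the NF-kB subunit REL by -1.09. The 2 members higher by at least 1 were NFKBIA, which holds NF-kB in the cytoplasm, with 11.1 and 11.7 FPKM against 24.4 and 26.0 FPKM, and the kinase gene IKBKB, with 2.49 and 2.63 FPKM against 7.09 and 6.55 FPKM. BIRC3, CCR7 and EBI3 were lower in both Raji-4RH libraries than in either Raji library. Over all genes tested, the values of the lines did not overlap for 88.5%.

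Among transcription factors of B cells, the core factors were close in the lines and several others differed widely. PAX5, the factor that maintains B cell identity, had 35.7 and 36.7 FPKM in Raji and 27.4 and 30.6 FPKM in Raji-4RH (-0.31), EBF1 differed by -0.05 without passing the test, and the octamer-binding factor POU2F2 by -0.38. SPI1, which encodes PU.1, was at 71.1 and 62.1 FPKM against 50.3 and 54.9 FPKM (-0.33, limma adjusted p = 0.0189), and limma's adjusted p was 0.135 without the first Raji library and 0.119 without the first Raji-4RH library. FOXO1 did not pass the test, at 10.0 and 9.74 FPKM in Raji and 11 and 10.8 FPKM in Raji-4RH (limma adjusted p = 0.0651). Of the 30 tested, 12 were higher and 13 lower, with 6 higher and 3 lower by at least 1.

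LEF1, a factor of the Wnt pathway that is used in early lymphoid cells, was nearly silent in Raji, with 0.0756 and 0.0648 FPKM, and at 15.4 and 15.8 FPKM in Raji-4RH. The repressor BACH2 had 5.36 and 3.90 FPKM against 38.4 and 40.6 FPKM (2.86 ± 0.12). ID proteins bind E proteins such as TCF3 and keep them from DNA, and the 4 ID genes were examined after the rise of ID1 had been seen. ID1 (chr20:31605283-31606515) had 0.862 and 0.725 FPKM in Raji and 94.3 and 98.3 FPKM in Raji-4RH. ID2 had 1.77 and 2.25 FPKM against 15.4 and 15.3 FPKM, and ID3 had 44.9 and 42.7 FPKM against 242 and 257 FPKM. ID4 had 2 reads over both Raji libraries and 29.1 and 31.5 FPKM in Raji-4RH, while TCF3 itself, at 250 and 210 FPKM against 191 and 213 FPKM, did not pass the test. All 4 ID genes were thus higher in Raji-4RH.

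Markers of the germinal center, the stage of B cell maturation that Burkitt lymphoma resembles, were split. All 11 tested passed the test, 8 lower and 3 higher, where 73.6% of all genes passed. By at least 1, 4 were lower (36.4%, against 7.37% of all genes) and 2 higher (18.2%, against 8.53%). SERPINA9 had 40.9 and 38.5 FPKM in Raji and 1.04 and 0.590 FPKM in Raji-4RH (-4.50 ± 0.11), and MYBL1 changed by -2.35, while BCL6, the repressor that maintains the stage, changed by -0.49. LMO2, by contrast, had 3.52 and 3.26 FPKM against 33.8 and 33.7 FPKM (2.99 ± 0.07).

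Plasma cell markers were lower in 8 of 10 tested (80.0%, against 32.4% of all genes) and higher in 1 (10.0%, against 41.2%). JCHAIN, which joins secreted antibody subunits, had 425 and 442 FPKM in Raji and 209 and 211 FPKM in Raji-4RH. DERL3, of protein export from the endoplasmic reticulum, had 7.11 and 6.43 FPKM against 1.29 and 1.29 FPKM. PRDM1, the regulator of plasma cell fate, was under 1 FPKM in every DMSO library and lower in Raji-4RH (-0.75). IRF4 was higher, from 0.498 and 0.572 FPKM to 2.03 and 1.89 FPKM.

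Of the genes of pore-forming apoptosis proteins, BAX and BAK1 behaved differently in RNA. The paper, citing earlier work, describes both proteins as silenced in the resistant lines, and protein was not measured in these libraries. BAX (chr19:48954815-48961798) had 62.7 and 57.3 FPKM in Raji and 12 and 12.4 FPKM in Raji-4RH, with reads 4.91-fold lower and a log2 fold change of -2.21 ± 0.08 (limma adjusted p = 5.1e-08). BAK1 had 19.9 and 20.6 FPKM in Raji and 20.6 and 21.8 FPKM in Raji-4RH, 0.06 ± 0.06 on the log2 scale, which did not pass the test. Among the genes of survival proteins, BCL2 was near 1 FPKM in every DMSO library and did not pass the test (0.11). BCL2L1 and MCL1 were lower by small amounts (-0.32 and -0.37), and BCL2L2 was lower from 5.00 and 5.32 FPKM to 1.13 and 1.06 FPKM.

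Of 8 tested BH3-only genes, whose proteins trigger apoptosis, 4 were higher in Raji-4RH, HRK was lower by 0.19 (not past the test with any 1 of the 4 libraries left out), and BAD, BBC3 and BCL2L11 did not pass the test. BMF had 1.42 and 1.53 FPKM in Raji and 12.9 and 12.3 FPKM in Raji-4RH (2.46 ± 0.07), PMAIP1, which encodes NOXA, had 34.6 and 33.2 FPKM against 72.4 and 70.9 FPKM, and BID and BIK were higher by 0.89 and 0.47. BCL2L11, which encodes BIM, had 16.9 and 17.9 FPKM against 16.8 and 16.4 FPKM. Over the family of 16 tested, 5 were higher and 5 lower (31.25% each, beside 41.2% and 32.4% of all genes). Another 6 did not pass, and 2 changed by at least 1 in each direction (12.5%, beside 8.53% and 7.37%).

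Death receptor and caspase genes were higher in 15 and lower in 10 of 26 tested. These are 57.7% and 38.5%, beside 41.2% and 32.4% of all genes, and 3 changed by at least 1 each way. FAS, a receptor that starts apoptosis from the cell surface, had 6.74 and 7.18 FPKM in Raji and 1.86 and 1.69 FPKM in Raji-4RH, and its adaptor FADD changed by -1.34. The TRAIL receptor gene TNFRSF10B was higher, with 9.44 and 9.18 FPKM against 25.1 and 22.8 FPKM. CASP8, an initiator caspase, was higher, with 2.24 and 2.32 FPKM against 4.23 and 4.32 FPKM. CASP1, of the inflammatory caspases, rose from 0.0685 and 0.121 FPKM to 2.88 and 2.54 FPKM.

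The 12 largest rises by the naming rule were of genes that were silent or nearly silent in Raji. EEF1A2, a translation elongation factor of nerve and muscle (chr20:63488012-63499322), had 2 reads over both Raji libraries and 23688 reads over both Raji-4RH libraries, 279 and 310 FPKM. The ratio per library total was 11827, with an exact 95% counting interval of 3274 to 97667. EIF4EBP1, a brake on cap-dependent translation, likewise had 2 reads in Raji and 133 and 138 FPKM in Raji-4RH. GSTP1, a glutathione transferase that conjugates drugs, had 4 reads in Raji and 107 and 111 FPKM in Raji-4RH (chr11:67583595-67586656).

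Cytoskeletal genes of non-lymphoid cells were among them, DBN1 (drebrin, an actin binder) with 75.8 and 81.5 FPKM in Raji-4RH, TPM2 (a tropomyosin) with 61.4 and 62.4 FPKM and MAP1B (a microtubule binder of neurons) with 38.7 and 37.9 FPKM, each at 0.138 FPKM or less in Raji. CYP26A1, the enzyme that degrades retinoic acid, had 1 read in Raji and 43.7 and 43.3 FPKM in Raji-4RH. HSPB1, the small heat shock protein HSP27, had 0.248 and 0.182 FPKM against 49.0 and 55.1 FPKM, and HPDL, a mitochondrial dioxygenase, had 0.528 and 0.579 FPKM against 52.9 and 59.6 FPKM. The remaining members of the 12 were ID1, described above, the membrane protease PRSS21 and the antiviral membrane protein IFITM2, with 0.624 and 0.450 FPKM against 59.6 and 62.2 FPKM.

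In the other direction, the 12 largest falls included CR2, PRKCB and SERPINA9, given above. NMU, the neuropeptide neuromedin U, had 28.2 and 30 FPKM in Raji and 1 read over both Raji-4RH libraries. MAT1A, which makes S-adenosylmethionine in liver, had 17.4 and 16.9 FPKM in Raji and 3 reads in Raji-4RH, and GAMT, the last enzyme of creatine synthesis, had 30.6 and 26.9 FPKM against 0.910 and 0.412 FPKM. RGCC, a regulator of the cell cycle, had 48.4 and 47.0 FPKM against 1.24 and 1.78 FPKM, and the ubiquitin ligase gene RNF144B had 34.3 and 37.3 FPKM against 1.1 and 1.11 FPKM. MT2A, a metallothionein that binds zinc and other metals, had 36.8 and 38.9 FPKM in Raji and 1.27 and 1.31 FPKM in Raji-4RH. ACTL8 (-4.94), SMIM14 (-4.41) and PBDC1 (-4.53) complete the 12.

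Some genes had reads in 1 line only. With 0 reads in both Raji libraries and a mean of at least 5 FPKM in Raji-4RH, 11 genes were found, and with 0 reads in both Raji-4RH libraries and that level in Raji, 1, the X-linked PBDC1 with 21.9 and 22.2 FPKM in Raji. A fold against 0 reads is a lower bound, taken here against 3 reads over the group. By this bound OGDHL, a dehydrogenase subunit, was at least 1822-fold higher in Raji-4RH, though its name lies 1 row from a place where the offset of the table changes. FRZB, a secreted antagonist of Wnt signals (chr2:182833275-182867162, minus strand), was at least 1419-fold higher with 34.2 and 33.3 FPKM, and PRSS21 at least 1294-fold. NKD2, an inhibitor inside the Wnt pathway, was at least 837-fold higher with 21.8 and 21.8 FPKM, the Ras-like gene RERG at least 982-fold and the glycophorin gene GYPC at least 872-fold. The others were LZTS1, ZNF385B, FAM155B, FOXL1 and MAP1LC3C, with means between 5 and 10 FPKM in Raji-4RH.

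Drug transport and detoxification genes differed widely in both directions, with 15 of 30 tested higher and 11 lower, and 8 higher by at least 1 (26.7%, against 8.53% of all genes) and 4 lower. Besides GSTP1, the microsomal glutathione transferase MGST1 rose from 1 read in Raji to 16.4 and 16.2 FPKM in Raji-4RH, MGST2 from 0.0318 and 0.0468 FPKM to 4.71 and 4.26 FPKM, and the aldehyde dehydrogenase ALDH2 from 0.104 and 0.133 FPKM to 10.2 and 9.89 FPKM. ABCB1, the drug efflux pump P-glycoprotein, had 0.0436 and 0.0342 FPKM in Raji and 0.909 and 0.991 FPKM in Raji-4RH, 9 reads against 221, so it was higher but still under 1 FPKM. ABCC1, a second efflux pump, was lower (-0.42). The metallothionein MT1X was lower together with MT2A, with 10.0 and 12.3 FPKM against 1.44 and 1.52 FPKM.

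In the list of unfolded protein and heat shock genes, 17 of 30 tested were higher and 8 lower, and 7 were higher by at least 1 (23.3%, against 8.53% of all genes) while 0 were lower by that much. Beside HSPB1 these were ATF4 and genes that it is known to switch on when amino acids are short or the endoplasmic reticulum is stressed. ATF4 had 153 and 156 FPKM in Raji and 334 and 341 FPKM in Raji-4RH (1.12). TRIB3, a pseudokinase, had 5.43 and 4.71 FPKM against 30.2 and 31.4 FPKM, ASNS, asparagine synthetase, had 9.96 and 10.9 FPKM against 50.6 and 47.0 FPKM, and CHAC1, which degrades glutathione, had 3.08 and 3.35 FPKM against 16.2 and 15.5 FPKM. DDIT4 and DDIT3 (CHOP) were higher by 1.37 and 1.23. The chaperone HSPA5, a target of other branches of the unfolded protein response, was lower by 0.16, not past the test without 3 of the 4 libraries in turn, and XBP1 was lower by 0.69.

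ATF4 binds with C/EBP factors to sites with the core TGATGNAA, where N is any base. The promoters of all 7 genes, 250 bases before to 50 bases after the start in RefSeq (GRCh38.p14), were searched for this core on both strands, and 2 held it, ASNS and CHAC1. Among all 27305 promoters of the same length, 3.67% held it. The 2 sites are printed on the gene's strand with 40 bases on each side, since they are the only matches among the 7 promoters, with the core in capitals (in CHAC1 it lies on the other strand). A match is a description of these letters, and nothing follows from the other 5 promoters for which none was found.
ASNS promoter (chr7:97872429-97872516, minus strand, core starting 68 bases before the start): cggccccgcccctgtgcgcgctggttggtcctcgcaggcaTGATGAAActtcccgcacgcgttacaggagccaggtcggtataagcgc
CHAC1 promoter (chr15:40953222-40953309, plus strand, core starting 209 bases before the start): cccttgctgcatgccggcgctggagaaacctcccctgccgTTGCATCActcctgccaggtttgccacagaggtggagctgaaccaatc

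Antigen presentation genes were higher in 10 and lower in 5 of 18 tested (55.6% and 27.8%, beside 41.2% and 32.4% of all genes). CIITA, the master regulator of MHC class II, was lower, with 15.5 and 14.5 FPKM in Raji and 11.6 and 11.5 FPKM in Raji-4RH (-0.35), and so was NLRC5, its counterpart for class I (-1.36). HLA-DQB1 had 0.940 and 1.13 FPKM against 13.6 and 14.1 FPKM and HLA-DRB5 had 0.0804 and 0.118 FPKM against 4.19 and 4.83 FPKM. HLA genes vary between people and resemble one another, so their read counts depend on how well the reference fits. Raji-4RH was raised from Raji, and how this bears on the difference between the lines was not tested. Of this list, 14 members could not be placed. CD74, the class II invariant chain, was at 529 and 516 FPKM against 590 and 615 FPKM (0.21), a difference that did not pass the test with quantile normalization, median-centred libraries, no filter or any 1 library left out.

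Costimulatory ligands were lower in 10 and higher in 2 of 15 tested (66.7% and 13.3%, beside 32.4% and 41.2% of all genes). Of the 15, 5 were lower by at least 1 (33.3%, against 7.37% of all genes). CD80, a ligand of CD28, had 4.52 and 4.56 FPKM in Raji and 0.7 and 0.486 FPKM in Raji-4RH. LGALS9, galectin 9, rose from 0.0798 and 0.0434 FPKM to 3.36 and 3.82 FPKM, and the adhesion ligand ICAM3 from 1.58 and 1.58 FPKM to 7.83 and 8.11 FPKM. Chemokine and cytokine genes were lower in 14 and higher in 7 of 27 tested (51.9% and 25.9%, beside 32.4% and 41.2% of all genes). ACKR3, a scavenging chemokine receptor, had 3.48 and 2.90 FPKM in Raji and 1 read in Raji-4RH. CCL22, a chemokine for regulatory T cells, had 1.94 and 1.66 FPKM and 3 reads.

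Interferon-stimulated genes did not move together, with 11 higher, 11 lower and 8 not past the test. The 11 either way are 36.7% of those tested, beside 41.2% higher and 32.4% lower of all genes. IFITM1 had 2 reads in Raji and 34.6 and 36.3 FPKM in Raji-4RH, beside IFITM2 above, whereas IFI6 had 6.09 and 6.94 FPKM against 0.925 and 1.31 FPKM and the receptor of viral RNA IFIH1 changed by -1.42.

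Adhesion and cytoskeleton genes moved in both directions. Of 45 tested, 8 were higher by at least 1 (17.8%, against 8.53% of all genes) and 12 lower (26.7%, against 7.37%). Calcium-binding S100 genes and a galectin led the rises. S100A4 had 0.790 and 1.40 FPKM in Raji and 74.8 and 72.2 FPKM in Raji-4RH, and S100A10 had 1.97 and 2.06 FPKM against 69.1 and 70.7 FPKM. LGALS1, galectin 1, had 0.461 and 0.632 FPKM against 29.6 and 33.7 FPKM. The tubulin gene TUBB6 (-3.66) and VIM were among the falls. All told 18 members were higher and 19 lower.

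S phase genes were higher in 28 and lower in 6 of 41 tested (68.3% and 14.6%, beside 41.2% and 32.4% of all genes). The median of the S phase genes was 0.35 in DMSO but -0.76 with chidamide. Only 2 were higher by at least 1 in DMSO, the nuclease EXO1 (1.43) and the primase PRIM1. By that much 1 member was lower.

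G2/M genes were higher in 12 and lower in 20 of 51 tested (23.5% and 39.2%, beside 41.2% and 32.4% of all genes). CKS2 (-1.68), AURKA, the Aurora A kinase (1.35), and CDCA3 (-1.19) led the list. Among cyclins, CDKs and their inhibitors, 11 were higher and 16 lower of 29 (37.9% and 55.2%). CDK6 had 17.1 and 17.2 FPKM in Raji and 4.51 and 4.2 FPKM in Raji-4RH, CDKN1A, which encodes the inhibitor p21, had 10.7 and 10.1 FPKM against 28.8 and 32.6 FPKM, and the inhibitors CDKN1B (p27) and CDKN2C were lower by 1.1 and 1.2.

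Glycolysis genes were higher in 8 and lower in 13 of 26 tested, with the lactate exporter SLC16A3 higher (3.55), PFKFB4 and TPI1 lower (-1.80 and -1.24) and HK2, a hexokinase, at 29.3 and 28.9 FPKM in Raji and 37.7 and 38.5 FPKM in Raji-4RH. For the TCA cycle and respiratory chain 13 were higher and 6 lower of 30, with SDHC at 1.09 and 1.01 FPKM against 8.17 and 7.90 FPKM and IDH2 at 19.3 and 18.7 FPKM against 4.66 and 4.26 FPKM. Cholesterol and fatty acid synthesis genes were lower in 12 and higher in 6 of 25 (48.0% and 24.0%). The sterol enzymes MVD and DHCR7 were lower by 1.47 and 1.44, while the desaturase FADS2 was higher (2.13).

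PI3K and MAPK genes were lower in 17 and higher in 13 of 37 (45.9% and 35.1%, beside 32.4% and 41.2% of all genes). The phosphatase DUSP5 (-2.26) and RASGRP1 (-1.98) were lowest. Proteasome genes were higher in 21 and lower in 8 of 32, by less than 1 except PSME1, an activator subunit, with 104 and 104 FPKM against 43.2 and 42.4 FPKM, PSMB5, the subunit that bortezomib inhibits, being lower by 0.92 and PSMD14 higher by 0.82. Autophagy genes were higher in 17 and lower in 12 of 36 (47.2% and 33.3%, close to the 41.2% and 32.4% of all genes), among them the protease CTSB (1.90), WIPI1 (1.68) and GABARAPL1 (1.37), and BTG1, an antiproliferative gene, was at 9.24 and 10.0 FPKM against 11.2 and 11.8 FPKM (0.24, limma adjusted p = 0.0151, and 0.098 and 0.095 without 1 or another of the libraries).

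Histone deacetylase and chromatin genes were higher in 16 and lower in 9 of 36. HDAC1, a target of chidamide, had 112 and 110 FPKM in Raji and 127 and 128 FPKM in Raji-4RH (0.20, not past the test with median-centred libraries or without the second library of either line). HDAC9 rose from 0.0662 and 0.0915 FPKM to 1.96 and 1.81 FPKM, SMARCA2, an ATPase of chromatin remodelling, was higher by 1.14 and the maintenance DNA methyltransferase DNMT1 fell from 115 and 109 FPKM to 52.0 and 52.1 FPKM. Spliceosome genes differed by small amounts, with 12 higher, 9 lower and 17 not past the test of 38 and 0 changed by at least 1, SRSF6 at 1.00 just below that size, SF3B4 at 0.74 and SRSF7 at -0.62. Of 26 germline genes placed only 4 could be tested, and STAG3, a meiotic cohesin subunit, was higher by 0.44.

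The line difference was not spread evenly over the chromosomes. On chromosome 20, 220 of 309 tested genes (71.2%) were higher in Raji-4RH and 30 (9.71%) lower, beside 41.2% and 32.4% over all genes. The median difference there was 0.45 on the log2 scale, where that of all genes was 0.06. Chromosomes 8, 10 and 5 followed with medians of 0.23, 0.22 and 0.21. Among the other numbered chromosomes the lowest medians were -0.19 on chromosome 15, -0.16 on chromosome 14 and -0.15 on chromosome 9. Mitochondrially encoded genes were lower in 8 of 11 tested, with a median of -0.77.

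To see whether neighbors moved together, the tested genes of each chromosome were cut into 417 windows of 25 in order of position, a step added after the values were seen. In 17 windows the median was 0.5 or more and in 11 it was -0.5 or less. The first 4 windows of chromosome 8, from 232137 to 38853028, had medians of 0.99, 0.93, 0.96 and 1.03, and in them between 19 and 22 of 25 genes were higher. EIF4EBP1 lies in the last of these windows. GSTP1, in contrast, lies in a window of chromosome 11 with a median of -0.61. The lowest window was chr2:42333546-48379294, with a median of -1.13 and 21 of 25 genes lower. Next to it, chr2:32277910-42332548 had a median of -0.71, and farther along the chromosome 3 windows in a row from 149569634 to 178478600 had medians of 0.65, 0.61 and 0.59.

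On chromosome 3, 4 windows in a row from 47413694 to 57170306 had medians between -0.76 and -0.56, and at the start of chromosome 1 the windows from 1615415 to 9729114 had medians of -0.73 and -0.60. With chidamide the same windows had medians of 1.17, 1.05, 0.90 and 0.95 on chromosome 8 and of -0.91 in the lowest window of chromosome 2. RNA cannot tell whether gene copies differ in these regions, and this was not tested.

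**Figure D4:**
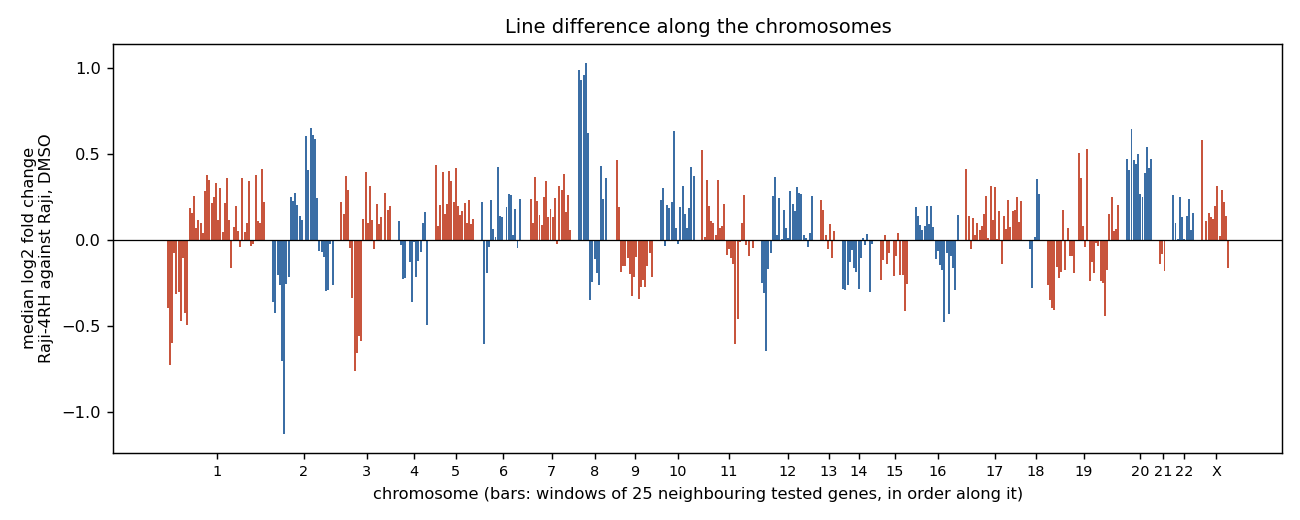
Median log2 fold change between Raji-4RH DMSO and Raji DMSO in 417 windows of 25 neighboring tested genes, in order along each chromosome (the colors alternate between chromosomes and carry no value). The 4 bars near 1 are the start of chromosome 8, the lowest bar at -1.13 lies on chromosome 2, and the windows of chromosome 20 are all above 0.

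The same contrast was made between the chidamide-treated lines. Its fold changes share no library with those in DMSO, but both tests use the same estimate of the spread, from all 8 libraries. Of the 1703 genes changed by at least 1 in DMSO, 1635 (96.0%) passed the test in the same direction with chidamide. Another 17 passed in the opposite direction and 51 did not pass, where 79.3% of all genes passed in either direction. Of all 7882 genes that passed in DMSO, fewer kept their direction, 6197 (78.6%), while 509 passed in the opposite direction and 1176 did not pass with chidamide. MS4A1 differed by -2.34 with chidamide and by -2.06 without, at 129 and 118 FPKM in Raji and 22 and 25.3 FPKM in Raji-4RH, and the difference between these values did not pass the test (limma adjusted p = 0.0704). BAX differed by -2.13 with chidamide and -2.21 without, and the difference between these did not pass either.

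The size of the line difference did depend on the treatment for many genes, since 5231 genes (48.8%) passed the test of the difference between the contrasts. Among the 1035 such genes changed by at least 1 in DMSO, the line difference was smaller with chidamide in 687 and larger in 348. The medians of some gene lists changed sign. Besides the S phase genes, that of antigen presentation genes went from 0.22 in DMSO to -0.39 with chidamide, and that of proteasome genes from 0.23 to -0.13. MT2A, for example, had 98.4 and 102 FPKM in Raji and 79.7 and 61.9 FPKM in Raji-4RH with chidamide, so that its difference went from -4.08 to -0.50, and SMIM14 went from -4.41 to -1.68. CR2 went the other way, from -4.92 to -6.83, with 127 and 125 FPKM in chidamide-treated Raji and 0.161 and 0.0667 FPKM in chidamide-treated Raji-4RH. ABCB1, at 5.47 and 6.25 FPKM in chidamide-treated Raji-4RH and 0.226 and 0.331 FPKM in Raji, went from 0.91 to 2.42.

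**Figure D5:**
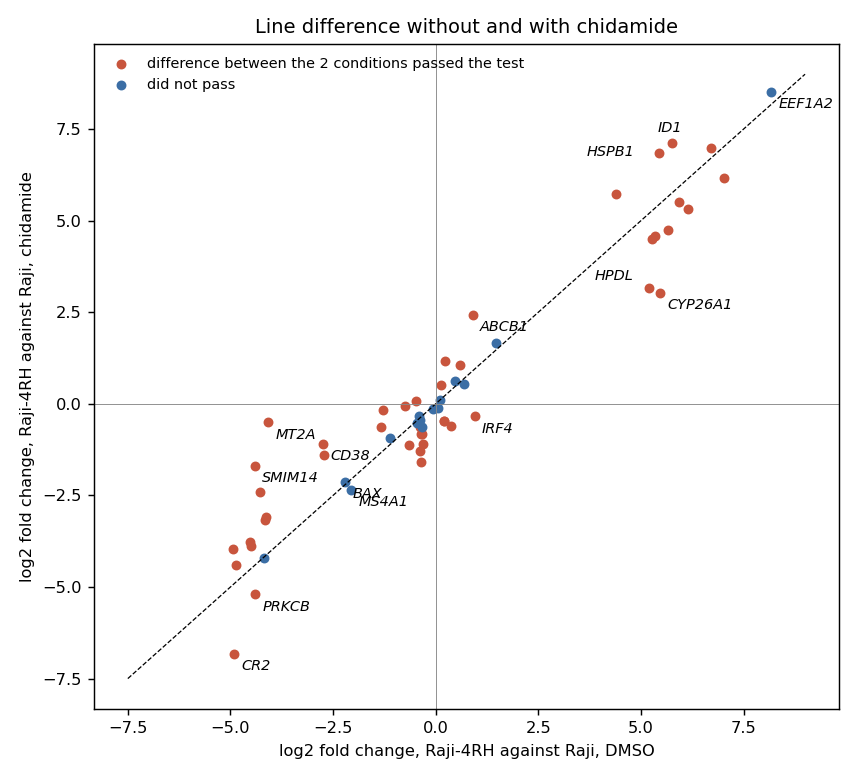
Log2 fold change between Raji-4RH and Raji in DMSO (x axis) and with chidamide (y axis) for 59 named genes, the 12 largest rises, the 12 largest falls and key genes, with red for the 44 whose difference between the conditions passed the test and the dashed line marking equal values. BAX lies close to the line (-2.21 and -2.13) and MS4A1 just below it (-2.06 and -2.34), MT2A, SMIM14 and CD38 lie above it on the left, and CR2 (-4.92 and -6.83) lies far below it.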

How the data were processed

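RNA was extracted with TRIzol for NEBNext Ultra libraries, which were read on an Illumina HiSeq X instrument. The submitters' processing notes name HISAT2 2.0.5, SAMtools 1.7, HTSeq 0.9.1 and DESeq2 1.22.2, and the genome hg38. The authors deposited 1 table of FPKM values with gene lengths. Multiplied by length and library total, 100% of the non-zero values were whole reads (tolerance 0.01). The table holds 63305 rows of values beside 63967 gene names, and its last 662 rows repeat earlier reads. Names were matched to values by a list of row offsets. In all 11 stretches with an offset, that offset gave the highest correlation, of 22 tried, between the log reads and the level foretold from the name, type and length of the gene (0.548 to 0.721). The best other offset reached 0.434 in the last stretch and at most 0.121 elsewhere. FPKM was then recomputed with each gene's own length. Of the 18143 genes placed, 18095 were found in GENCODE v29, the source of coordinates. The 45824 names that were not placed were not used here.

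For each gene that reached 1 FPKM in 2 or more of the 8 libraries, log2(FPKM + 1) was tested with limma 3.58.1 in R 4.3.3 (moderated by eBayes with a mean trend). All 8 libraries entered 1 fit, with Benjamini-Hochberg adjustment and a threshold of 0.05. Fold changes on this scale understate those of low genes. The step was tested on simulated data. An exact permutation test of 2 libraries against 2 cannot go below p = 0.333 and was not used. Named genes are the 12 largest rises and falls among protein-coding genes called, with no overlap and a mean of at least 5 FPKM in the higher line, the 3 largest changes of each list, a list of key genes, and genes with 0 reads in 1 line and at least 5 FPKM in the other. The members and lists were chosen with earlier results of these data known. Replicates of a group differed by more than sampling noise (median chi-square per gene between 0.720 and 1.76, where sampling alone gives 0.455). Tables were made with Python 3.11.15, pandas 2.3.3, numpy 2.4.6 and scipy 1.17.1, and figures with matplotlib 3.10.9. Some genes that the rule names are not reported here, though they stay in the counts.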

Additional observations from a re-analysis of the deposited data

Results flagged for a closer look

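The line difference with chidamide was not the same as in DMSO for 5231 genes by limma's test of the difference between the contrasts. For 4 of the key genes and largest changes reported here, both contrasts passed the test with opposite signs. IRF4, a factor of activated B cells and plasma cells, was higher in Raji-4RH in DMSO (0.95) and lower with chidamide (-0.34), a difference of -1.29, with chidamide-treated values of 5.04 and 5.36 FPKM in Raji and 3.54 and 4.29 FPKM in Raji-4RH. HK2 went from 0.38 to -0.61 (difference -0.98), CD74 from 0.21 to -0.46 (difference -0.67) and HDAC1 from 0.20 to -0.46 (difference -0.67). The DMSO differences of CD74 and HDAC1 did not pass the test with median-centred libraries. For these genes, whether both contrasts pass depends on the processing.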

How the results depend on the processing

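The counts of genes higher and lower in Raji-4RH in DMSO, 4412 and 3470, came to 1787 and 1471 (3258 in all) among labels that share a row with their values, where fewer genes were tested, and to 914 and 789 (1703 in all) with a log2 fold change of at least 1. Without 1 of the 4 libraries they ranged from 3881 to 3983 and from 3039 to 3149 (6960 to 7132 in all), and the lone sample left in a group is assumed to vary like the others. Quantile normalization moved the median of all genes from 0.06 to -0.01 and the share of calls that were higher from 56.0% to 49.8%, and median-centred libraries to 51.8%. With chidamide, 7120 genes were higher without a filter on low values, against 4746. Replicate numbers share only a number (correlation of deviations -0.155 between the DMSO groups). With a replicate block there were 4338 higher and 3410 lower, and with the Raji numbers crossed, added after seeing the data, 4477 and 3560. Limma voom on recovered reads gave 4504 and 3558, and a fit of the 4 DMSO libraries alone gave 4578 and 3655 (8233 in all). Of 7845 pairs of a followed gene and an alternative, 7538 kept direction and side of the threshold, 213 lost the call, 92 gained it and 2 reversed, GAPDH (to 0.068) and TET2 (to -0.070) with quantile normalization. With 2 libraries per group, small changes depend most on single libraries.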
